A study of Homo sapiens with 10 samples.

Results

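The 9 genes described here encode parts of the MHC class I antigen presentation machinery: HLA-B, HLA-C, HLA-E and HLA-F (the membrane-bound heavy chains), B2M (their light chain), TAP1 and TAPBP (peptide transport and loading), and PSMB8 and PSMB9 (immunoproteasome subunits). They were chosen by name, and a probe set was assigned to a gene only where that gene was its single annotated symbol. This gave 22 probe sets for the 9 genes, out of 19775 genes measured in the same way. All 9 genes passed the filter on low values that left 9888 genes for testing.

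Expression was measured on 10 single-channel oligonucleotide arrays in human gastric cancer cells of 3 kinds. A side population is the fraction of cells that excludes the DNA-binding Hoechst dye, a property attributed to ATP-binding cassette transporters, and it is collected by flow cytometry. Side population cells were on 4 arrays (replicates a to d), the remaining non-side population cells on 4 arrays (replicates a to d) and unsorted cells on 2 arrays (replicates a and b). The label for origin names the gastric carcinoma lines AGS and MKN 45, both established lines, on every array. The label for source names AGS alone on 8 arrays and no line for side population replicates a and b, so the share of each line on an array is not known here. No treatment is named for any group. The labels do not say if replicates were grown separately, so p-values reflect only the spread among these arrays, which may be technical. The question the groups address is whether side population cells differ in gene expression from the other cells of the lines.

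MHC class I molecules display short peptides from the cell's own proteins on its surface, where cytotoxic T cells and natural killer cells inspect them. The proteasome cuts the proteins, the TAP transporter moves the peptides into the endoplasmic reticulum, and tapasin and other chaperones load them onto a heavy chain paired with B2M. Interferons raise the transcription of most of these genes, and in epithelial tumours a lower level of the pathway is a known route of escape from T cells.

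Class I genes are known to respond to interferon regulatory factors, NF-kB, NF-Y and factors that bind cyclic AMP response elements, so the promoter stretches with letters of that kind are printed here before the expression values. The sequences are RefSeq's on build GRCh38.p14, and the windows searched were the 250 bases before each annotated start. Of the 9 genes, 8 had an entry, with 10 starts in all, and HLA-E did not. In the lines below, capitals mark matches on either strand to 4 motifs: the interferon regulatory factor (IRF) core AANNGAAA, the Y box core CCAAT bound by NF-Y, the cyclic AMP response element core TGACG, and the NF-kB site. The motifs were chosen with these sequences in view.
HLA-B: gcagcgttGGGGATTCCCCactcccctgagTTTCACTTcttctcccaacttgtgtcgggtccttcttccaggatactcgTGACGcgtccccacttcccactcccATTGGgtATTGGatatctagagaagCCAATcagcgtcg
HLA-C: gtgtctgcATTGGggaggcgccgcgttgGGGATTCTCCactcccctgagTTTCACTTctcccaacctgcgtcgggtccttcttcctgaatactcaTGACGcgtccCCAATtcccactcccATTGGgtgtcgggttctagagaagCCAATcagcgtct
HLA-F: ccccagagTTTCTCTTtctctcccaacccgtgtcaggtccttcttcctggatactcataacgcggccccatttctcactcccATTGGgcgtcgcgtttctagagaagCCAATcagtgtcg
B2M: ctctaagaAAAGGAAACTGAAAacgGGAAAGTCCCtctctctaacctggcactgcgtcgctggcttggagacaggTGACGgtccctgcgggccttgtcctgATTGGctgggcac
TAP1: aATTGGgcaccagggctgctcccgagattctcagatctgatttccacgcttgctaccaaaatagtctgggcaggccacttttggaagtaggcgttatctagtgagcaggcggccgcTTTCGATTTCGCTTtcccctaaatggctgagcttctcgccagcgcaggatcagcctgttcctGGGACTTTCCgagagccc
TAPBP: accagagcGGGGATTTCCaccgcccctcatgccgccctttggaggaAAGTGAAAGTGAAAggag
PSMB9: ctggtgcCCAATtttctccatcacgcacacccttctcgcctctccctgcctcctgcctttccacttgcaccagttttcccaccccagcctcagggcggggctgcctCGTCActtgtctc

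The HLA-B stretch lies at chr6:31357223-31357364 on the minus strand, from -185 to -44 relative to the start. The HLA-C stretch lies at chr6:31272136-31272292 on the minus strand, from -200 to -44. The HLA-F stretch lies at chr6:29723270-29723389 on the plus strand, from -164 to -45. In all 3 heavy chain genes an IRF core match, on the opposite strand, stands before Y box cores, and HLA-C has a further Y box core ahead of it. The 2 NF-kB matches in HLA-B overlap each other. Over the 250-base windows HLA-B and HLA-C were identical at 89.0% of aligned positions, HLA-B and HLA-F at 80.4%, and HLA-C and HLA-F at 78.7%.

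The B2M stretch is at chr15:44711367-44711480 on the plus strand and ends 37 bases before the start, at -37. It holds 2 overlapping IRF core matches, an NF-kB match, a cyclic AMP response element core and a Y box core. The TAP1 stretch is at chr6:32853759-32853954 on the minus strand, from -250 to -55, and the PSMB9 stretch at chr6:32853942-32854060 on the plus strand, from -250 to -132. TAP1 and PSMB9 are neighbours that are read in opposite directions, and their windows share 13 bases at chr6:32853942-32853954. The TAPBP stretch is at chr6:33314079-33314142 on the minus strand and covers the last 64 bases before the start. TAP1 and TAPBP each hold 2 IRF core matches that overlap, and an NF-kB match. For PSMB8, 1 of its 2 start windows held a cyclic AMP response element core and none of the other motifs, and the second TAP1 start window held none of the 4.

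Among the 8 genes with an entry, 6 had an IRF core match in a window, against 20.3% of 35116 RefSeq promoter windows of the same length. A Y box core was found in 6 of the 8, against 32% of all windows. A cyclic AMP response element core was found in 5, against 21.2%, and an NF-kB match in 5, against 9.96%. The counts are of genes with a match in any of their windows, 10 windows in all, and the shares are of single windows, so they are not like for like. The motifs were chosen with these sequences in view, so the counts do not test for an excess. These are matches of letters and not measured binding sites. HLA-B, HLA-C and HLA-F are copies of a common ancestor, so their matches are not independent. The Y box core of TAP1 and that of PSMB9 are the same 5 bases, within the stretch their windows share, so 1 element is counted for both genes.

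The arrays carry probe sets of different affinity, so levels are compared between arrays for the same probe set and never between genes. Each gene is represented by its brightest probe set, and fold changes are on the scale log2(intensity + 6.1). Brightness was the mean log2 value over all arrays, most of them of sorted cells. This choice can therefore favour sets that read high in sorted cells. For HLA-B the chosen set, 209140_x_at, had a mean of 4023 on the unsorted arrays, below 4560 for 208729_x_at and 4908 for 211911_x_at. Side population replicate a stands apart in RNA quality: its actin control had a 3' over 5' intensity ratio of 3.34, against 0.987 to 1.28 on the other arrays, and its GAPDH control 1.87 against 0.864 to 1.06. Some differences of the brightest probe sets are also given without it. Those of the other probe sets were not computed without it, and its part in the results was not tested further. All 8 epithelial carcinoma markers were above the filter, EPCAM between 17745 and 29017. Of 8 blood cell markers measured, lysozyme (LYZ), which gastric epithelium also makes, was above the filter, and the leukocyte marker PTPRC read 2.2 to 34.4. Summed blood cell markers lay between 20632 and 32266 on side population arrays, 21522 and 32712 on non-side population arrays and 28975 and 28978 on unsorted arrays, nearly all of it LYZ. Of 4 endothelial markers 0 and of 6 fibroblast markers 1 (COL1A1) were above the filter.

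Within the sorted cells the class I genes did not separate the side population from the non-side population. None of the 9 genes was called (limma, adjusted p under 0.05), where the share called among all genes was 0%, with a smallest adjusted p of 0.992 and 430 genes at an unadjusted p under 0.05. The groups overlapped for each of the 9 genes, where 1.59% of all genes had groups that did not overlap. Against the unsorted cells, the heavy chain genes HLA-B and HLA-C and the immunoproteasome gene PSMB9 read 2.77- to 3.70-fold higher in sorted cells of either kind. HLA-C was called in side population cells, where 2.35% of all genes were called, and all 3 genes in non-side population cells, where 3.52% were. These values are those of the brightest probe set of each gene: for side population cells, the other 2 HLA-B sets differed by 0.39 and 0.31 (log2) and 1 of the HLA-C sets by -0.03. Leaving out either unsorted array ended all 4 calls. In bulk samples, fewer cells of a type and less RNA per cell cannot be told apart. Passage through the sorter and selection by dye both separate sorted from unsorted cells and cannot be told apart here.

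**Figure D1:**
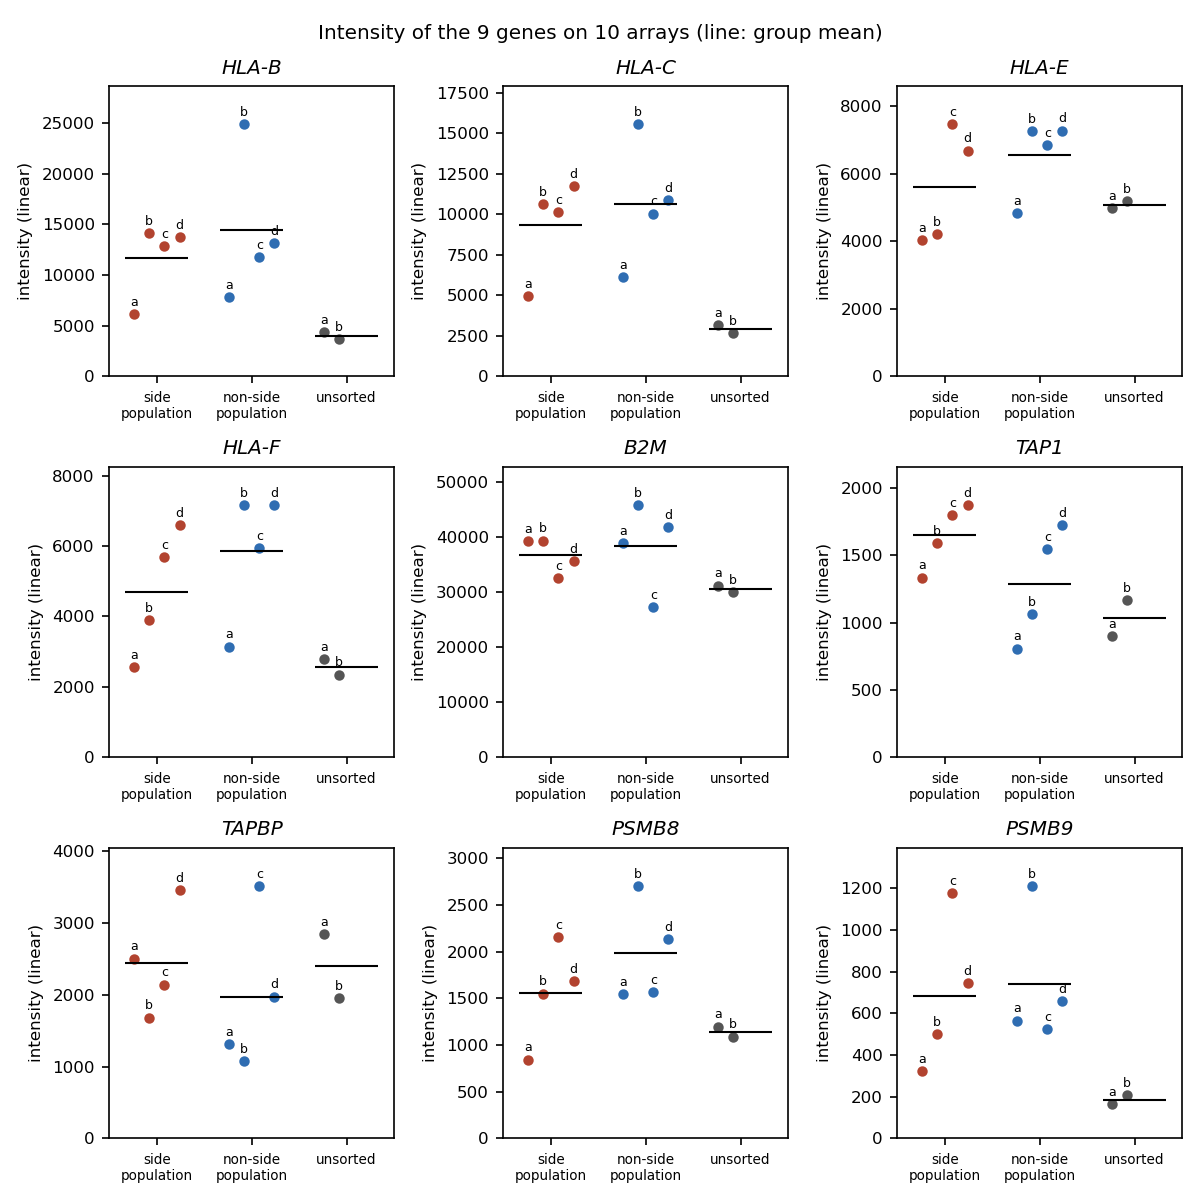
Intensity (linear scale) of the representative probe set of each gene on every array, in 3 groups, with replicate letters beside the points and the group mean as a line. HLA-B, HLA-C and PSMB9 show both unsorted arrays below all 8 sorted arrays, while side and non-side population arrays overlap in every panel. The share of all genes with both unsorted arrays lowest was not computed. Among all genes, 21.3% had the side population and 15.6% the non-side population arrays all above the unsorted ones.

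HLA-B is a classical heavy chain that presents peptides to cytotoxic T cells. Its brightest probe set, 209140_x_at, read 6117, 14134, 12870.2 and 13762 in side population replicates a to d. It read 7781, 24909, 11783 and 13139.6 in non-side population replicates a to d, and 4388 and 3659 in the unsorted replicates. Both unsorted arrays lay below every sorted array, and the sorted groups overlapped, with replicate a lowest in each and non-side population replicate b highest. The share of all genes with the unsorted arrays lowest was not computed, here or for the genes below. Group means were 11721 ± 3773 (SD, n = 4), 14403 ± 7364 (SD, n = 4) and 4023 ± 515 (SD, n = 2). The side population differed from the non-side population by -0.24 ± 0.33 (log2, SE; adjusted p = 1). Against unsorted cells HLA-B was 1.71 ± 0.41 higher in non-side population cells, a 3.28-fold difference that was called (adjusted p = 0.0331). The difference of 1.47 ± 0.41 for side population cells was not called (adjusted p = 0.0714).

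HLA-C, the second classical heavy chain measured, is also the main ligand of the killer cell immunoglobulin-like receptors on natural killer cells. On probe set 214459_x_at it read 4941, 10633, 10125 and 11705 in side population replicates a to d. The non-side population arrays read 6111, 15567, 10029 and 10846, and the unsorted arrays 3139.7 and 2659. The ranking was close to that of HLA-B: the unsorted arrays were lowest, replicate a was lowest in each sorted group, and the 2 sorted groups overlapped. Means were 9351 ± 3013 (SD, n = 4) in side population, 10638 ± 3882 (SD, n = 4) in non-side population and 2899.6 ± 339.6 (SD, n = 2) in unsorted arrays. HLA-C was the single class I gene called against unsorted cells in both sorted groups. It was 1.62 ± 0.37 higher in side population cells (3.07-fold, adjusted p = 0.0388) and 1.80 ± 0.37 higher in non-side population cells (3.49-fold, adjusted p = 0.0176). The sorted groups differed from each other by -0.18 ± 0.30 (adjusted p = 1).

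HLA-E is a non-classical heavy chain that presents leader peptides of other class I chains to the CD94/NKG2A receptor of natural killer cells. Probe set 200905_x_at read 4034, 4207, 7469.5 and 6680.3 in side population replicates a to d. It read 4825, 7255, 6829.9 and 7266 in non-side population arrays, and 4978 and 5179.7 in unsorted arrays. The unsorted values lay inside the range of both sorted groups, so HLA-E did not share the position of HLA-B and HLA-C. The differences were -0.26 ± 0.24 between the sorted groups (adjusted p = 1), 0.09 ± 0.29 for side population against unsorted (adjusted p = 0.92) and 0.35 ± 0.29 for non-side population against unsorted (adjusted p = 0.549). A second probe set, 200904_at, gave another picture, as described with the probe sets below.

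HLA-F is a non-classical heavy chain that natural killer cell receptors also bind. Probe set 221875_x_at read 2568, 3898, 5692 and 6596 in side population arrays and 3147, 7161, 5939.5 and 7170.1 in non-side population arrays. The unsorted arrays read 2795 and 2345. Every non-side population array was above both unsorted arrays, whereas side population replicate a lay between them. The difference from unsorted cells was 1.12 ± 0.39 for the non-side population (adjusted p = 0.125) and 0.78 ± 0.39 for the side population (adjusted p = 0.32), so neither was called. In each letter the side population array was lower than the non-side population array of that letter, though arrays of the same letter were not shown to be pairs. The group difference of -0.34 ± 0.32 was not called (adjusted p = 1).

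B2M, the light chain shared by all class I molecules, had the smallest standard errors of the 9 genes. Probe set 201891_s_at read 39276, 39379.5, 32586 and 35622 in side population arrays. It read 38901, 45900.1, 27335 and 41854 in non-side population arrays, and 31216 and 30018 in unsorted arrays. All 4 side population arrays exceeded the unsorted arrays, but by a small margin, and non-side population replicate c was the lowest of all 10. The differences were -0.05 ± 0.18 between the sorted groups, with a 95% interval from -0.44 to 0.35, and 0.26 ± 0.23 and 0.30 ± 0.23 for side and non-side population against unsorted cells (adjusted p = 1, 0.618 and 0.49). The second bright B2M probe set, 216231_s_at, read 25575 to 35140.5, 24201 to 43789 and 30099 to 32354 in the 3 groups, with overlap throughout. The ratio of that set to 201891_s_at was 0.651 in side population replicate a, the lowest of the 10 arrays, and 1.04 at the highest.

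TAP1 is a subunit of the transporter that carries peptides into the endoplasmic reticulum. Its single probe set, 202307_s_at, read 1332, 1591, 1798 and 1874 in side population arrays. It read 806, 1065, 1546 and 1725 in non-side population arrays, and 899.6 and 1166 in unsorted arrays. Every side population array was above both unsorted arrays, and within each letter the side population array was above the non-side population array, by 0.72, 0.58, 0.22 and 0.12 (log2) in letters a to d. Arrays of the same letter were not shown to be pairs. The sorted groups overlapped, and their difference of 0.41 ± 0.25 was not called (adjusted p = 0.997, 95% interval -0.13 to 0.95). The difference from unsorted cells was 0.67 ± 0.31 for side population (adjusted p = 0.281) and 0.26 ± 0.31 for non-side population cells (adjusted p = 0.69).

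TAPBP encodes tapasin, the chaperone that holds empty class I molecules next to the transporter. Probe set 208829_at read 2502, 1683, 2139.5 and 3453 in side population arrays and 1308, 1072, 3517 and 1972 in non-side population arrays. The unsorted arrays read 2840.1 and 1951. The spread within each sorted group was larger than any difference between groups, and TAPBP was the single gene of the 9 with a negative difference for non-side population against unsorted cells (-0.41 ± 0.41, adjusted p = 0.621). The side population differed by 0.42 ± 0.34 from the non-side population (adjusted p = 0.997) and by 0.00 ± 0.41 from unsorted cells (adjusted p = 0.998).

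PSMB8 is a catalytic subunit that replaces its constitutive counterpart in the immunoproteasome. Probe set 209040_s_at read 842, 1549, 2157 and 1684 in side population arrays. It read 1546, 2705, 1565 and 2134 in non-side population arrays, and 1194 and 1088 in unsorted arrays. All 4 non-side population arrays were above the unsorted arrays, and side population replicate a was the lowest of the 10. The difference from unsorted cells was 0.76 ± 0.35 for non-side population (adjusted p = 0.244) and 0.37 ± 0.35 for side population cells (adjusted p = 0.645). Between the sorted groups it was -0.39 ± 0.28 (adjusted p = 0.997).

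PSMB9, another inducible catalytic subunit, had the largest differences from unsorted cells among the 9 genes. Probe set 204279_at read 321, 499.6, 1176 and 745 in side population arrays. It read 565, 1212, 525 and 659 in non-side population arrays, and 164 and 208 in unsorted arrays. The unsorted arrays were the 2 lowest of the 10. PSMB9 was 1.89 ± 0.44 higher in non-side population than in unsorted cells (3.70-fold), which was called (adjusted p = 0.0317). The difference of 1.70 ± 0.44 for side population cells (3.25-fold) was not called (adjusted p = 0.0585). The sorted groups differed by -0.19 ± 0.36 (adjusted p = 1), with the side population array lower in letters a and b and higher in letters c and d.

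**Figure D2:**
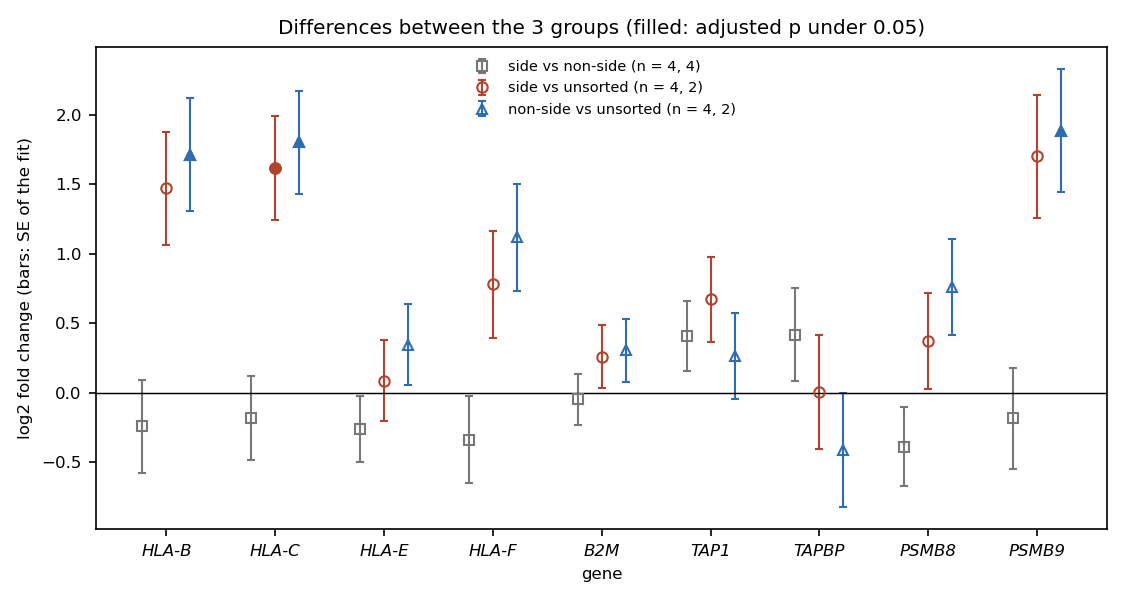
Log2 fold change of each gene in the 3 comparisons, with the standard error of the limma fit as bars; filled symbols mark an adjusted p under 0.05. The filled symbols are HLA-C for side population against unsorted cells and HLA-B, HLA-C and PSMB9 for non-side population against unsorted cells, and all differences between the sorted groups are open.

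By role, the 4 heavy chains all had a negative difference between side and non-side population (median -0.25), as did both immunoproteasome subunits (median -0.29), whereas TAP1 and TAPBP both had a positive one (median 0.41). None of these passed the test. Over the 9 genes 7 differences were negative and 2 positive, with a median of -0.19 beside 0.04 over all genes tested. The 95% intervals do not show that the groups are alike: they reached from -0.95 to 0.47 for HLA-B and from -0.96 to 0.59 for PSMB9. Without side population replicate a the difference was 0.04 for HLA-B, 0.10 for HLA-C and 0.12 for PSMB9, so their sign turned, while TAP1 stood at 0.51. The differences for HLA-E, HLA-F, B2M and PSMB8 were then -0.12, -0.079, -0.080 and -0.12, against -0.26, -0.34, -0.05 and -0.39 with it. With the 8 arrays whose source label names AGS it was 0.016 for HLA-B, 0.11 for HLA-C, 0.13 for HLA-E, 0.14 for HLA-F and 0.42 for PSMB9, and 0 genes were called.

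For side population against unsorted cells, all 9 differences were positive, with a median of 0.67 beside 0.04 over all genes tested. Of the 9 genes, 1 was called and it was higher in side population cells, where 2.35% of all genes were called and 1.81% were called higher. In 5 of the 9 genes (HLA-B, HLA-C, B2M, TAP1 and PSMB9) every side population array was above both unsorted arrays, where 21.3% of all genes had that order. The HLA-C call rests on few arrays: its adjusted p was 0.0762, 0.0802 and 0.0681 without side population replicate b, c or d, 0.0561 without non-side population replicate d, which alters the shared estimate of spread, and 0.341 and 0.328 without unsorted replicate a or b. Without side population replicate a, 3 genes were called (HLA-B, HLA-C and PSMB9, adjusted p = 0.0469, 0.0196 and 0.0366), and the same 3 were called without non-side population replicate b. PSMB8 differed from unsorted cells by 0.64 without side population replicate a, against 0.37 with it. HLA-F differed by 1.04, against 0.78, and HLA-E by 0.23, against 0.09, and none of these was called.

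For non-side population against unsorted cells, 8 differences were positive and 1 negative, with a median of 0.76 beside -0.01 over all genes tested. The 3 called genes were higher in non-side population cells, where 3.52% of all genes were called and 2.37% were called higher. In 5 of the 9 genes (HLA-B, HLA-C, HLA-F, PSMB8 and PSMB9) every non-side population array was above both unsorted arrays, where 15.6% of all genes had that order. Leaving out unsorted replicate a or b left 0 of the 3 calls, and leaving out non-side population replicate d left HLA-C alone (adjusted p = 0.042). Both comparisons with unsorted cells use the same 2 unsorted arrays, so they are not independent of each other.

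Averaged over the 9 genes, each centred on its own mean, the log2 level was -0.41, 0.05, 0.40 and 0.43 in side population replicates a to d. It was -0.27, 0.51, 0.23 and 0.37 in non-side population replicates a to d, and -0.62 and -0.70 in the unsorted arrays. Replicate a was the lowest array of either sorted group and lay between the other sorted arrays and the unsorted ones.

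The replicate letters divided the sorted arrays in an earlier look at these data, letters a and b against c and d, and since it was picked there, its p-values may be too low. Side population replicates a and b are the arrays whose source label names no line, while that of non-side population replicates a and b names AGS. Side population replicate a also had the actin ratio of 3.34. In letters a and b, cell population, cell line and RNA quality therefore cannot be told apart. For letters a and b, 0 of the 9 genes were called between side and non-side population, where 9.15% of all genes were. PSMB9 differed there by -1.04 ± 0.37 (adjusted p = 0.0848), PSMB8 by -0.84 ± 0.32 (adjusted p = 0.106) and TAP1 by 0.65 ± 0.23 (adjusted p = 0.0856). Within letters c and d, 0 of the 9 genes and 0% of all genes were called, and PSMB9 differed by 0.67 ± 0.37 (adjusted p = 0.983). The test of the difference between these pairs of letters called 0% of all genes and none of the 9, with a smallest adjusted p among the 9 of 0.107, for PSMB9 (-1.70 ± 0.52).

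Against unsorted cells, side population letters a and b had 1 gene called (HLA-C), where 13.7% of all genes were, and letters c and d had 5 (HLA-B, HLA-C, HLA-F, TAP1 and PSMB9), where 8.5% were. The limits of source label and RNA quality apply to side population letters a and b here too. In letters c and d PSMB9 was 2.31 ± 0.37 higher than in unsorted cells (adjusted p = 0.00299). Non-side population letters a and b had 4 called, HLA-B, HLA-C and PSMB9 higher and TAPBP lower (-0.99 ± 0.33, adjusted p = 0.0456), where 22.2% of all genes were. Non-side population letters c and d also had 4 called (HLA-B, HLA-C, HLA-F and PSMB9), where 11.9% were.

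The HLA genes are near-identical over long stretches, and the array design marks this. Of the 22 probe sets, 11 carry the suffix _x_at, which stands for probes that also match other transcripts, 5 carry _s_at, which stands for probes shared by several transcripts, and 6 carry a plain _at. All 4 HLA genes are represented by an _x_at set, so a heavy chain's value may include signal from another heavy chain.

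**Figure D3:**
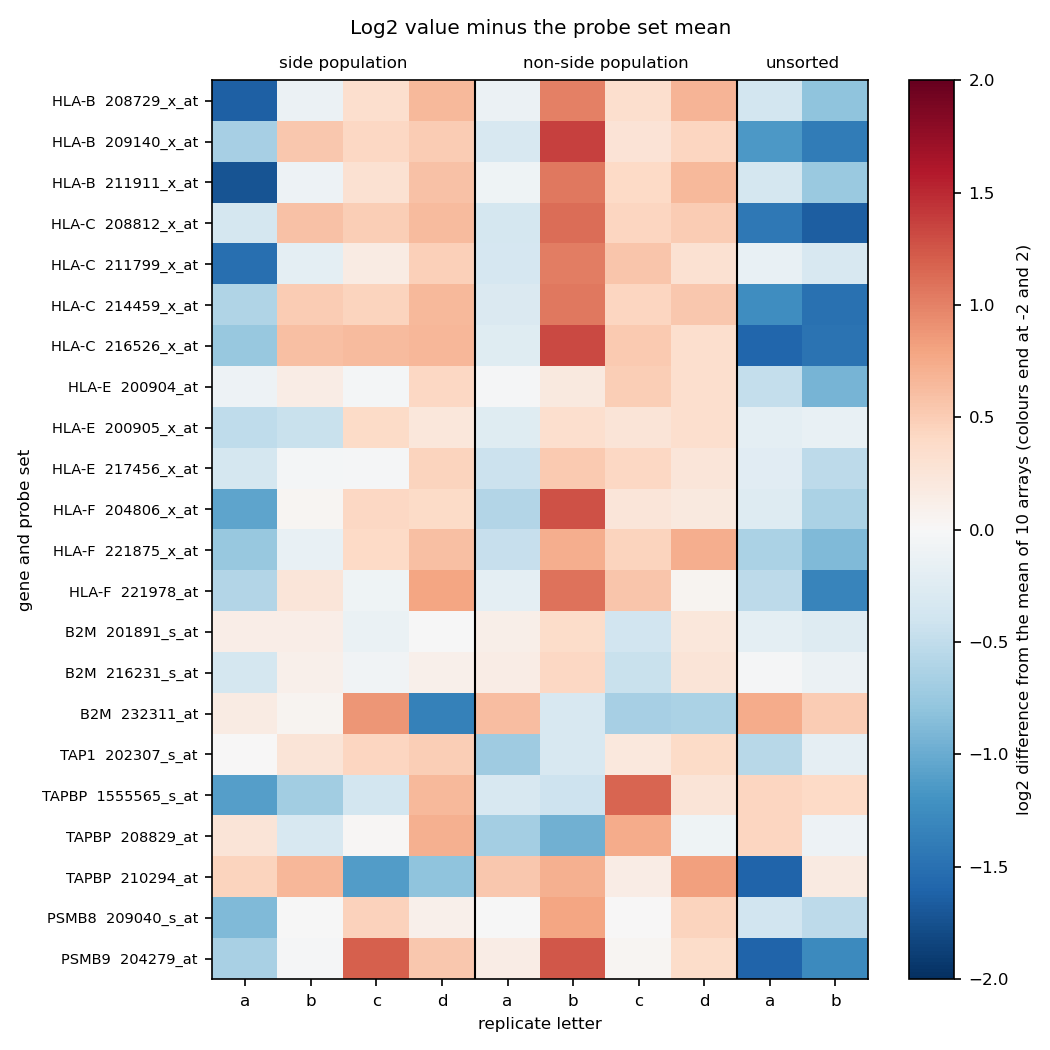
Log2 value of all 22 probe sets on the 10 arrays, each minus its own mean (colour, log2 units; colours end at -2 and 2), ordered by gene and grouped by cell population. The unsorted columns are deep blue for HLA-B 209140_x_at, 3 of the 4 HLA-C sets and PSMB9, and paler for HLA-B 208729_x_at and 211911_x_at and HLA-C 211799_x_at, which are darkest in side population replicate a.

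The probe sets of HLA-B fell into separate patterns. Beside 209140_x_at, set 208729_x_at read 2171 to 10635 in side population, 6234 to 13598 in non-side population and 3883 to 5237 in unsorted arrays. Its difference from unsorted cells was 0.39 ± 0.51 for side population and 1.06 ± 0.51 for non-side population cells (adjusted p = 0.721 and 0.253 with every probe set tested on its own). The third set, 211911_x_at, gave 0.31 ± 0.52 and 1.05 ± 0.52. Neither was called, so the size of the HLA-B difference depends on the probe set read. Set 209140_x_at was the brightest through the sorted arrays, so its larger differences from unsorted cells are not independent of that choice. On both sets side population replicate a was the lowest array, at 2171 and 2123, and their differences without it were not computed.

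HLA-C showed the same division. Sets 208812_x_at and 216526_x_at read 5409.6 to 10705 and 3459.9 to 9257 in side population arrays, 5392 to 15011 and 4912 to 14569 in non-side population arrays, and 2187 to 2556 and 1942 to 2087 in unsorted arrays. For 208812_x_at the difference from unsorted cells was 1.88 ± 0.37 in side population (adjusted p = 0.0263) and 1.97 ± 0.37 in non-side population cells (adjusted p = 0.0156). For 216526_x_at it was 1.82 ± 0.44 (adjusted p = 0.052) and 2.02 ± 0.44 (adjusted p = 0.0277). The fourth set, 211799_x_at, read 778 to 3099.9, 1753 to 4513 and 1775 to 1996 in the 3 groups, and its differences of -0.03 ± 0.48 and 0.62 ± 0.48 were not called (adjusted p = 0.987 and 0.482). Its lowest array, at 778, was side population replicate a, and the difference without that array was not computed.

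Ratios of probe sets within an array show this unequal change without any scaling between arrays. HLA-B 208729_x_at over 209140_x_at was 0.355, 0.442, 0.661 and 0.773 in side population replicates a to d. It was 0.801, 0.546, 0.727 and 0.827 in non-side population arrays, and 1.19 and 1.06 in unsorted arrays. The HLA-C ratio 211799_x_at over 214459_x_at lay between 0.157 and 0.325 on the 8 sorted arrays and was 0.636 and 0.667 on the unsorted arrays. Neither ratio overlapped between sorted and unsorted arrays. The same held for HLA-B 211911_x_at over 209140_x_at. It held for HLA-C 208812_x_at over 214459_x_at (0.882 to 1.09 on sorted, 0.814 and 0.822 on unsorted arrays). B2M 216231_s_at over 201891_s_at also separated (0.651 to 0.986, against 1.0 and 1.04). HLA-C 216526_x_at over 214459_x_at overlapped, as did the ratios computed for HLA-E, HLA-F and TAPBP. Separation was therefore not particular to the HLA sets that differed from the representative set. How often same-gene ratios separate in this way among all genes was not computed, so the separation may be common.

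**Figure D4:**
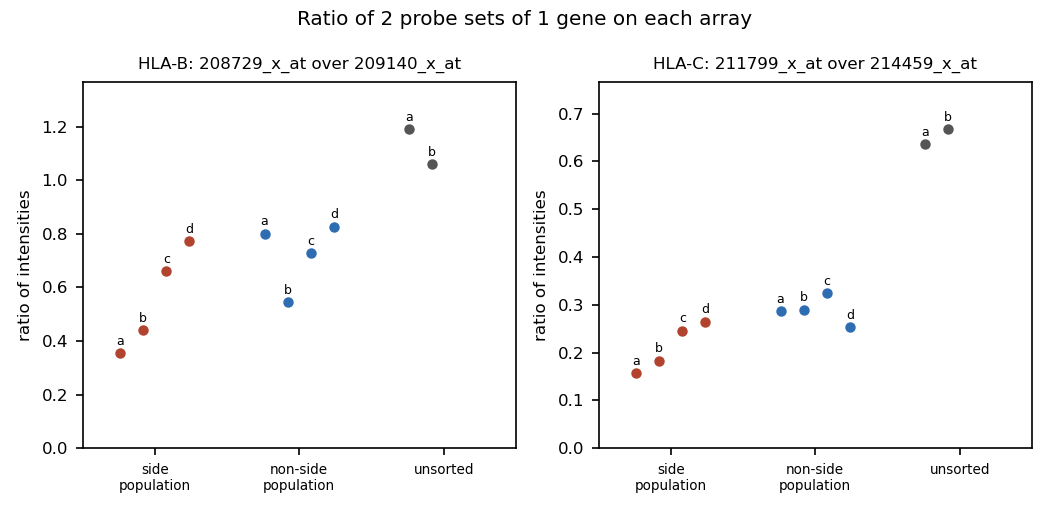
Ratio of the intensities of 2 probe sets of the same gene on each array, for HLA-B and for HLA-C, by group with replicate letters. Both unsorted arrays lie above all 8 sorted arrays in each panel, at 1.06 and 1.19 for HLA-B and at 0.636 and 0.667 for HLA-C. Some ratios not drawn, a B2M ratio among them, also separated sorted from unsorted arrays, and others overlapped. The share of such separation among all genes was not computed.

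Across the 10 arrays, which share the scaling and the group structure, the probe sets that moved alike did not follow gene names. The HLA-B and HLA-C sets were divided, after their values were seen, by a correlation above 0.9 with HLA-B 209140_x_at. HLA-B 209140_x_at and the HLA-C sets 208812_x_at, 214459_x_at and 216526_x_at correlated at 0.978 to 0.993 among themselves (Pearson r of log2 values). The HLA-B sets 208729_x_at and 211911_x_at and the HLA-C set 211799_x_at correlated at 0.949 to 0.998 among themselves, and at 0.561 to 0.791 with the first 4. The latter 3 sets correlated at 0.805 to 0.984 with the 4 probe sets of HLA-G, a further non-classical heavy chain, against 0.357 to 0.801 for the first 4. Which transcripts each set detects was not tested.

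For the other genes the probe sets differed less, with exceptions. HLA-E 200904_at, a set without the cross-matching suffix, read 1144, 1374, 1196 and 1644 in side population and 1212, 1409, 1741 and 1549.8 in non-side population arrays. The unsorted arrays read 883 and 644, below every sorted array, which 200905_x_at did not show. The share of all probe sets with that order was not computed. Its differences from unsorted cells were 0.81 ± 0.26 (adjusted p = 0.113) and 0.95 ± 0.26 (adjusted p = 0.0606), neither called. For TAPBP, set 1555565_s_at differed by -0.54 ± 0.40 between side and non-side population where 208829_at differed by 0.42, and both were uncalled. HLA-E 217456_x_at read 1860.3 to 3235, 1763 to 3442 and 1656 to 2029 in the 3 groups. HLA-F 204806_x_at read 1348 to 3756, 1872 to 6781 and 1803 to 2355, and HLA-F 221978_at, a dim set, 64.5 to 177, 86.9 to 219 and 36.3 to 67.8. Both HLA-F sets had the same sign as 221875_x_at in all 3 comparisons, and none was called. The 2 sets below the filter, B2M 232311_at and TAPBP 210294_at, read 8.6 to 63.1 and 18.2 to 124 over the 10 arrays and were not tested.

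With each of the 20 probe sets above the filter tested on its own, 0 were called between side and non-side population, where 0% of all 20549 probe sets were. Against unsorted cells 2 were called in side population (both HLA-C), where 2.1% of all probe sets were, and 5 in non-side population (1 HLA-B, 3 HLA-C and PSMB9), where 3.58% were. Of the 22 sets, those below the filter included, 19 had a negative difference between side and non-side population and 3 a positive one. Among all genes tested, 4224 of 9888 had a negative one. That count is of genes above the filter, each by its brightest set, so the counts are not like for like. The share over all probe sets was not computed. Most of the 22 are HLA sets that may share transcripts, so they are not separate observations.

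Between the representative probe sets, HLA-B and HLA-C moved most alike (r = 0.987 over 10 arrays). PSMB9 followed both (0.904 and 0.905) and PSMB8 followed PSMB9 (0.849). HLA-F correlated at 0.903 with HLA-C and at 0.854 with HLA-E. TAP1 correlated more weakly with the heavy chains, at 0.415 to 0.569. TAPBP correlated at -0.287 with HLA-B and at -0.682 with B2M, and B2M at -0.05 with HLA-E. These values describe arrays that share group structure and are not tests.

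Outside the 9 genes, those most like their mean over the 10 arrays were IFI44 (r = 0.984), IFI44L (0.961), TCN1 (0.952), PSMB8-AS1 (0.946) and SYNRG (0.946). They were picked by that likeness, and the mean was lowest on the unsorted arrays. Low readings on unsorted arrays are therefore built into the choice, and the calls below are not separate evidence. IFI44, an interferon-inducible gene, read 360.1, 743, 1722 and 1377 on side population arrays, 562, 1801, 1315 and 1426 on non-side population arrays, and 186 and 144 on unsorted arrays. The unsorted arrays were lowest and replicate a was lowest in each sorted group, as for HLA-B and HLA-C. It was called against unsorted cells both in the side population (2.41 ± 0.54, adjusted p = 0.0343) and in the non-side population (2.80 ± 0.54, adjusted p = 0.0133). TCN1, which encodes a vitamin B12 binding protein, was called in non-side population cells (2.12 ± 0.40, adjusted p = 0.0121). PSMB8-AS1 is transcribed antisense to PSMB8 and was not called in any of the 3 comparisons.

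The rest of the pathway was read from lists of other genes. Of 8 further loading, trimming and chaperone genes 7 were tested and 0 were called in any comparison. Their medians were 0.04 between the sorted groups and 0.05 and 0.02 for side and non-side population against unsorted cells. ERAP1, the peptidase that trims peptides in the endoplasmic reticulum, differed from unsorted cells by 0.82 ± 0.30 in side population cells (adjusted p = 0.163). TAP2, the partner of TAP1, differed by -0.20 ± 0.26 (adjusted p = 0.759) and CALR, the lectin chaperone calreticulin, by 0.49 ± 0.29 (adjusted p = 0.418).

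Among other class I and class I-like heavy chains, 7 of 12 were tested and 0 were called. Their medians were -0.13 between the sorted groups, 0.50 for side population and 0.63 for non-side population against unsorted cells. ULBP2, a stress-induced ligand of the NKG2D receptor, differed from unsorted cells by 1.79 ± 0.47 in side population (adjusted p = 0.0582) and 1.19 ± 0.47 in non-side population cells (adjusted p = 0.18). MICB, another NKG2D ligand, differed by 0.96 ± 0.35 and 0.84 ± 0.35 (adjusted p = 0.17 and 0.206). HLA-G differed by 0.53 ± 0.48 and 1.04 ± 0.48 (adjusted p = 0.632 and 0.252). Its probe sets all carry the suffix _x_at, so this value may include signal from other heavy chains.

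Other proteasome genes gave no call. The constitutive catalytic subunits PSMB5, PSMB6 and PSMB7, which PSMB8 and PSMB9 and their relatives replace, had medians of -0.02, -0.10 and -0.06 in the 3 comparisons, and 0 were called. Of 11 other subunits of the 20S core 10 were tested and 0 were called, with medians of 0.01, 0.12 and 0.08. Against unsorted cells 3 of these 10 were higher and 2 lower without overlap in side population cells. Among all 9888 genes tested, 2108 were higher and 1522 lower in that way. PSMA2 differed by -0.41 ± 0.29 (adjusted p = 0.503) and PSMA5 by 0.36 ± 0.33 (adjusted p = 0.628). Among the proteasome activators and PSMB10, the third inducible catalytic subunit, 4 of 5 were tested and 0 were called. PSMB10 differed from unsorted cells by -0.06 ± 0.32 (side population) and -0.02 ± 0.32 (non-side population; adjusted p = 0.956 and 0.978), unlike PSMB9 in sign, though the difference between the 2 genes was not tested. PSME4, a nuclear activator, had side population arrays all above the non-side population arrays, by 0.88 ± 0.22, which did not pass (adjusted p = 0.997). In all, 100 of 9888 genes had that order. The non-side population arrays were all below the unsorted arrays for PSME4 (-0.74 ± 0.26, adjusted p = 0.142), an order that 1616 of 9888 genes had.

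Of 15 transcriptional regulators of class I genes 13 were tested and 0 were called. Their medians were -0.15, -0.18 and -0.20 in the 3 comparisons, and 8 differences from unsorted cells were negative for the side population, 9 for the non-side population. IRF9, the DNA-binding subunit of the factor activated by type I interferon, differed from unsorted cells by 1.12 ± 0.35 in side population (adjusted p = 0.108) and 1.34 ± 0.35 in non-side population cells (adjusted p = 0.0501). IRF1 differed by 0.64 ± 0.28 and 0.89 ± 0.28 (adjusted p = 0.258 and 0.096). NLRC5, the class I transactivator, differed by 0.83 ± 0.33 and 0.84 ± 0.33 (adjusted p = 0.199 and 0.174). Others ran the opposite way. IRF2, a repressor of interferon-responsive genes, differed from unsorted cells by -0.95 ± 0.42 in side population cells (adjusted p = 0.261). NFYA, a subunit of NF-Y, differed by -0.64 ± 0.31 in non-side population cells (adjusted p = 0.284). Neither overlapped between the groups compared, where 1522 and 1616 of 9888 genes were lower without overlap. Interferon receptors and kinases (7 of 9 tested) had medians of 0.02, -0.09 and -0.08, and 0 were called.

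Interferon-stimulated genes, a list of 24 with no member of the class I set, had calls in both comparisons with unsorted cells. Among all genes, 1.81% were called higher for the side population and 2.37% for the non-side population. Of 22 tested, 20 had a positive and 2 a negative difference from unsorted cells in each sorted group. In side population cells 5 rose, namely IFI27 (3.23 ± 0.43, adjusted p = 0.00232), BST2 (4.41 ± 0.74, adjusted p = 0.00945), IFI6 (2.94 ± 0.53, adjusted p = 0.0117), IFI44 and GBP1 (1.86 ± 0.45, adjusted p = 0.045). In non-side population cells the same 5 and IFI44L rose, IFI27 by 3.44 ± 0.43 (adjusted p = 0.00113) and IFI44L by 3.67 ± 0.85 (adjusted p = 0.0303). The medians over the list were 1.30 and 1.28 against unsorted cells and -0.09 between the sorted groups, where 0 were called. CXCL10 and IFIT2, both interferon-inducible, ran the other way in both sorted groups. They differed by -1.23 ± 0.39 and -0.72 ± 0.30 in side population cells (adjusted p = 0.112 and 0.232). In non-side population cells they differed by -1.35 ± 0.39 and -1.08 ± 0.30 (adjusted p = 0.0679 and 0.0617). MHC class II genes and their chaperones were mostly below the filter: 2 of 9 were tested (HLA-DMA and HLA-DMB) and 0 were called.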

How the data were processed

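The deposited values are intensities on a linear scale for 54675 probe sets on 10 arrays, made by the authors with software that per the submitters' processing notes includes GCOS 1.4, its settings being not given in the sources used. The authors' values already shared a trimmed mean close to 500.1 on every array (500.065 to 500.095), so no further scaling was applied. Precision is limited by the number of arrays, just 2 for unsorted cells. Columns of unknown samples: 0.

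Symbols came from the platform annotation (1 symbol for 41097 probe sets, several for 1801, none for 11777). Values entered as log2(intensity + 6.1), where 6.1 is the lowest decile of intensities, which understates changes of dim genes. The brightest probe set with a single symbol represented each gene, and the upper 50% of genes by mean log2 value (intensity 149 and above) were tested. The 3 groups were fitted together with limma 3.58.1 in R 4.3.3 (eBayes with a trend), without covariates, and p-values were adjusted by Benjamini-Hochberg over 9888 genes. Calls needed an adjusted p under 0.05. The procedure was tested on simulated data. Intervals are the fit's, at 95%.

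Named genes were the 9 genes with all their probe sets, up to 4 genes per list and comparison by smallest unadjusted p (TAP2, GBP1, CXCL10 and IFIT2 were added after their values were seen), and the 5 genes most correlated with the mean of the 9. The members and lists were chosen with earlier results of these data known. Promoters were compared with Biopython 1.88 and figures drawn with matplotlib 3.10.9. Alternatives changed the constant, a floor, the filter, the normalization, the probe sets, the variance model and the arrays in the fit.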

Additional observations from a re-analysis of the deposited data

Results flagged for a closer look

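Within groups of 4 arrays, 3 of 18 sets of log2 values (9 genes in 2 sorted groups) had an end value whose gap to its neighbour, divided by the group's range, passed Dixon's critical value at the 95% level. Chance passes about 1 in 20 such sets. HLA-B was low in side population replicate a (gap over range 0.888), at 6117 where the other 3 arrays read 12870.2 to 14134. HLA-C was low on the same array (0.832), at 4941 where the others read 10125 to 11705. HLA-E was low in non-side population replicate a (0.849), at 4825 where the others read 6829.9 to 7266. Side population replicate a is also the array with the 3' over 5' actin ratio of 3.34, while non-side population replicate a had a ratio of 0.987. The part of RNA quality in these values was not tested.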

How the results depend on the processing

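Between side and non-side population, 0 of the 9 genes were called under any of the 23 alternatives, the replicate block among them (0 called). The titles give both sorted groups the same replicate letters. Same-letter deviations from the group means correlated at 0.212, 0.498, -0.117 and 0.364 in letters a to d, and different-letter ones at -0.476 to 0.429, so letter c failed the rule that all exceed 0.1, and the letter was not used as a block elsewhere. Side population against unsorted had 1 gene called: 0 without a filter, 2 with the 2 compared groups alone, 2 with AGS-labelled arrays alone, 5 within letters c and d, and 0 to 3 when each array was left out. Non-side population against unsorted had 3 called: 1 without a filter and 0 to 3 when each array was left out. The interaction of letters had 0 under its 3 alternatives. Of the called differences, HLA-B against unsorted lost its call with the 2 compared groups alone (adjusted p = 0.0593) and PSMB9 with quantile normalization (0.0612). Signs turned only for uncalled differences, and the cause was not tested. Between the sorted groups, AGS-labelled arrays gave 0.016 (HLA-B), 0.11 (HLA-C), 0.13 (HLA-E), 0.14 (HLA-F) and 0.42 (PSMB9), and letters c and d gave 0.097 (HLA-B), 0.062 (HLA-C), 0.0039 (HLA-E), 0.0104 (B2M), 0.061 (PSMB8) and 0.67 (PSMB9). Leaving out each array gave -0.50 to 0.064 (HLA-B), -0.42 to 0.10 (HLA-C), -0.20 to 0.047 (B2M) and -0.50 to 0.12 (PSMB9). For side population against unsorted, letters a and b gave -0.30 (HLA-E) and -0.20 (TAPBP), and leaving out each array -0.069 to 0.23 (HLA-E) and -0.27 to 0.27 (TAPBP). For non-side population against unsorted, letters a and b gave -0.14 (TAP1) and letters c and d 0.16 (TAPBP). PSMB9 was not tested with the filter at the 75th percentile. Representative probe sets were kept fixed.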

Other observations

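For TAPBP, the ratio of probe set 1555565_s_at to 208829_at was 0.0922, 0.184, 0.183 and 0.23 in side population replicates a to d and 0.306, 0.351, 0.322 and 0.305 in non-side population replicates a to d. It was 0.24 and 0.341 in the unsorted arrays. The sorted groups did not overlap in this ratio, which was noticed after the values were seen and was not tested, and each probe set on its own overlapped between them.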
